A study of Mus musculus with 32 samples.

Results

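Ghrelin (Ghrl) and ghrelin O-acyltransferase (Mboat4) are the 2 genes described here, of 22532 gene symbols in the deposited tables, and they were chosen by symbol. Ghrelin is a peptide hormone that stimulates appetite and growth hormone release. It is made mainly by endocrine cells of the stomach lining, by scattered cells of the intestine, and in early life by some cells of the pancreatic islets. Mboat4 attaches a fatty acid to the serine at the third position of the peptide, and only the acylated form activates the receptor Ghsr at ordinary levels.

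Total RNA was sequenced from 32 libraries of mouse digestive tract, 16 from wild-type and 16 from percc1-/- mice, in 16 pairs matched for region and stage. Stomach gave 5 pairs (the whole organ at P1 and P5, its bottom part at P10, P15 and P20). Small intestine gave 7 (top part at P1, P5 and P15, bottom part at P1, P5, P10 and P20), large bowel gave 3 (colon with rectum at P1, and colon and rectum separately at P5), and whole gut, stomach included, gave 1 at E14.5. All mice were labelled as a mixed 129SvEv and C57BL/6 background. In percc1-/- mice a loxP site stands in place of 1512 bp of chromosome 17, an allele from W4/129S6 embryonic stem cells. The labels do not say how many cell clones founded the line. Tissue was bulk and emptied of its contents. In such samples fewer cells of a type and less RNA per cell cannot be told apart. Whether each library is its own animal, or 1 animal gave several regions, is not in the labels. The p-values therefore describe the spread between pairs, part of which may be technical, and could be too small.

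Records where the targeted gene is placed separated the genotypes in stomach alone, which is no independent check of the labels. The labels place the deleted bases at chr17:25175032-25176543 of mm9, and 4 of 16 percc1-/- libraries held unnamed records wholly inside those positions, against 0 of 16 from wild type and against the direction of a deletion. The same position numbers fall inside Percc1 on GRCm38, so the build is in doubt. No record carried the symbol Percc1. Between Clcn7 and BC003965 (chr17:25299045-25321505 of mm9), the interval in which RefSeq's gene order places Percc1, all 5 wild-type stomach libraries held unnamed records (5.16 to 13.9 FPKM summed) and none of the 5 from percc1-/- mice did. Outside stomach they were present in only 1 wild-type library, and that interval had been picked from earlier results of these data. The tables held 55408 to 248150 records, the fewest in percc1-/- bottom stomach at P15, and the fragments per library came to roughly 7700000 to 17900000 by an estimate from the width of the FPKM bounds.

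On mm9, Ghrl occupied chr6:113666113-113669874 on the minus strand in 5 exons with a transcript of 527 nt, and Mboat4 occupied chr8:35178084-35188239 on the plus strand in 3 exons with 1839 nt (GENCODE vM1). The codons of mature ghrelin are shown because they hold the residue on which Mboat4 acts, and with them the bases before the Ghrl start. The 28 codons run from codon 24 of 117 and cross from exon 2 into exon 3, within chr6:113669176-113669354. The capitals mark the codon of the acylated serine.
Mature ghrelin codons: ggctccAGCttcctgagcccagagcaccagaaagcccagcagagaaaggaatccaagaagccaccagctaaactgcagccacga
Ghrl promoter: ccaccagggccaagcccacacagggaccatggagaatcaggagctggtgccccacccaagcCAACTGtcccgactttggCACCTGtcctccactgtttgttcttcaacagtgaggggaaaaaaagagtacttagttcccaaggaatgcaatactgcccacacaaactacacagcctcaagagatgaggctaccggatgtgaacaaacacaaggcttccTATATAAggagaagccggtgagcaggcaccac
The promoter stretch is the 250 bases before the annotated start, chr6:113669875-113670124 read on the minus strand. Its capitals mark TATATAA, 32 bases before the start, and the E-boxes CANNTG at 189 and 171 bases before it. On either strand, TATATAA was present in 3.04% of 32851 RefSeq promoter windows of GRCm38.p6 and CANNTG in 66.2%, so the E-boxes are common letters. These matches describe the letters only.

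In wild-type mice Ghrl was far higher in stomach than anywhere else. FPKM divides the fragments of a gene by its length and by the size of the library, and each deposited value comes with a lower and an upper 95% bound. Stomach held 38.2 FPKM at P1 (bounds 33.7 to 42.6), 44.9 at P5 (39.8 to 49.9), 47.9 at P10 (43.0 to 52.8), 53.4 at P15 (47.6 to 59.2) and 67.9 at P20 (60.5 to 75.4). The mean was 50.4 ± 11.2 FPKM (SD, n = 5). The values were in the order of stage, but the tissue changed from the whole stomach to its bottom part between P5 and P10, and bounds of neighbours overlapped except between P15 and P20. Age and dissection cannot be told apart in that step.

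Small intestine held less. The top part had 17.4 FPKM of Ghrl at P1, 14.4 at P5 and 7.11 at P15, and the bottom part had 15.7 at P1, 6.03 at P5, 7.39 at P10 and 8.43 at P20 (mean 10.9 ± 4.72 FPKM over all, SD, n = 7). The highest of these stayed below the lowest stomach value. Large bowel had 4.20 FPKM in colon with rectum at P1, 2.79 in rectum at P5, and colon at P5 was listed at 0. Whole gut at E14.5 had 4.20 FPKM. In the order of all 16 wild-type levels, neighbours had overlapping bounds at 11 of 15 steps. The 4 steps without overlap fell between P20 and P15 stomach, between P1 stomach and the highest intestinal value, between top intestine at P5 and bottom intestine at P20, and between rectum at P5 and colon at P5. A listed 0 is not proof of absence. Of the 4643 genes averaging 10 FPKM or more over all libraries, 51 had a listed 0 somewhere. That count mixes organs and genotypes, so it does not show how often a listed 0 hides RNA.

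Mboat4 followed the same order of organ means at a far lower level. Wild-type stomach had 1.01 FPKM at P1 (bounds 0.655 to 1.37), 1.08 at P5 (0.691 to 1.47), 2.30 at P10 (1.77 to 2.83), 1.40 at P15 (0.936 to 1.87) and 1.52 at P20 (1.002 to 2.03), with a mean of 1.46 ± 0.515 FPKM (SD, n = 5). Wild-type small intestine ran from 0.180 to 0.417 FPKM (0.295 ± 0.0943, SD, n = 7), large bowel from 0.0806 to 0.242 in 3 libraries, and whole gut had 0.287. All 5 stomach values lay above every other wild-type value, yet bounds of neighbours in the order overlapped at all 15 steps. The bounds of the intestinal values imply only 3.22 to 13 fragments per library, against 31.0 to 76.2 in stomach. Compared per transcript length, Mboat4 was 2.23 to 4.81 percent of the Ghrl level in wild-type stomach (median 2.63) and 1.15 to 6.601 percent in wild-type small intestine.

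Both genes were higher in wild-type stomach than in wild-type small intestine with stage in the model. On the scale of log2(rescaled FPKM + 1), the difference was 2.10 ± 0.25 for Ghrl (SE, adjusted p = 0.000358) and 0.82 ± 0.10 for Mboat4 (adjusted p = 0.000468) by limma with Benjamini-Hochberg adjustment over all genes tested. Such calls were common, at 32.2 percent of 16488 genes in either direction and 17.9 percent as higher in stomach. The pseudocount of 1 compresses the difference of a gene as low as Mboat4.

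**Figure D1:**
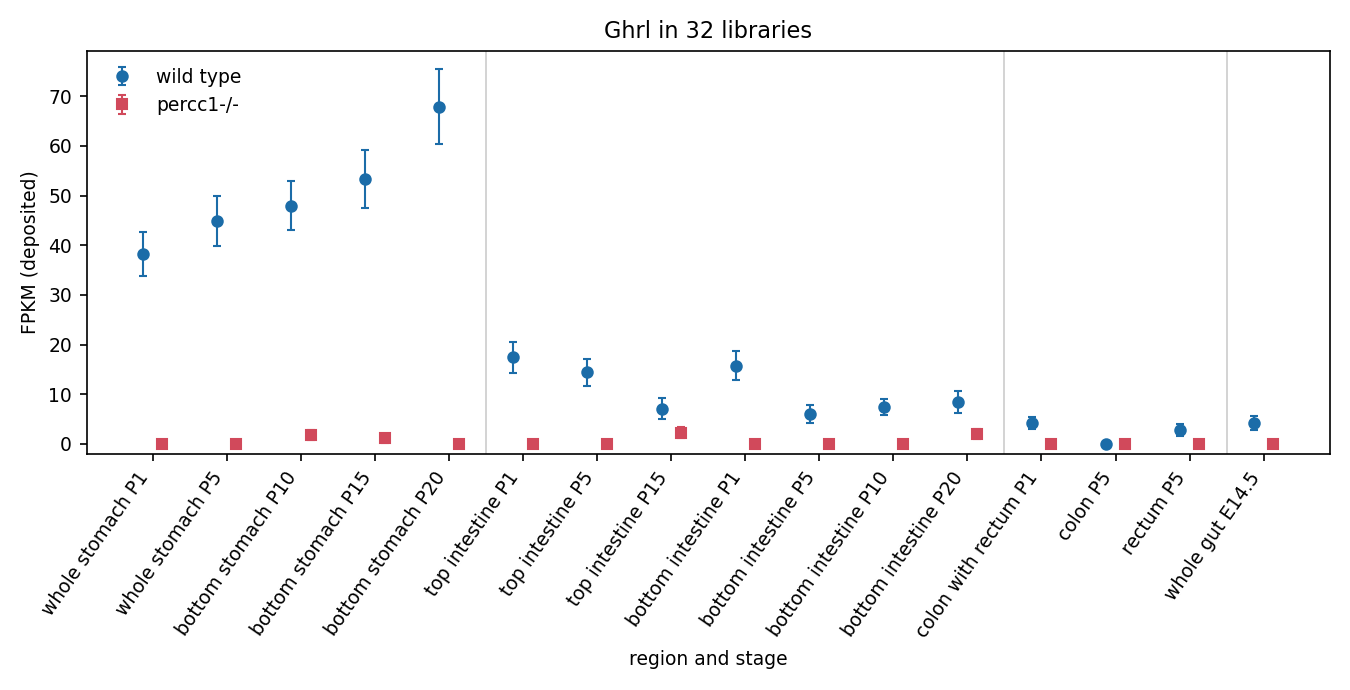
Ghrl in FPKM as deposited (vertical axis) for each region and stage (horizontal axis), wild type as circles and percc1-/- as squares, with bars for the deposited 95% bounds and lines between stomach, small intestine, large bowel and whole gut. Wild-type stomach sits between 38.2 and 67.9 FPKM, and no percc1-/- library exceeds 2.21.

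In percc1-/- mice Ghrl was listed at 0 in 12 of 16 libraries and reached at most 2.21 FPKM. In percc1-/- stomach it was listed at 0 at P1, P5 and P20, and had 1.71 FPKM at P10 (bounds 0.723 to 2.70) and 1.14 at P15 (0.205 to 2.07). Wild type was 27.96-fold higher at P10 and 47.0-fold higher at P15, the stomach pairs with a percc1-/- value above 0. In percc1-/- small intestine it was listed at 0 in 5 of 7 libraries, and had 2.21 FPKM in the top part at P15 and 1.92 in the bottom part at P20, where wild type was 3.22-fold and 4.39-fold higher. Large bowel and whole gut were at 0 in all 4 percc1-/- libraries. The groups did not overlap in stomach or in small intestine, though the share of all genes with such separation is not given here.

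The fitted fall of Ghrl over all pairs was 3.35 ± 0.38 on the log2 scale (SE), with an adjusted p of 0.000116 by limma, and Ghrl was lower in 15 of 16 pairs. In the remaining pair, colon at P5, both genotypes were listed at 0. Of 16330 genes tested, 0.79 percent were called over all pairs, 0.447 percent as lower and 0.343 percent as higher. Among all of them the fitted fall of Ghrl was the largest, on a scale where the wild-type level caps any fall. The exact sign-flip test of the pair ratios, two-sided, gave p = 6.10e-05 over the 16 pairs.

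In stomach the fitted change was -5.11 ± 0.25 (SE, adjusted p = 0.00327, limma, lower in 5 of 5 pairs), in a comparison where 0.0121 percent of 16584 genes were called, Ghrl and Gcg. The exact sign-flip p was 0.0625, the smallest that 5 pairs allow. Without bottom stomach at P15 the call was lost by limma (-5.19, adjusted p = 0.0578).

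In small intestine the fitted change of Ghrl was -3.02 ± 0.36 (SE, adjusted p = 0.0335, limma, lower in 7 of 7 pairs), where 0.0802 percent of 16203 genes were called, 0.0679 percent as lower and 0.0123 percent as higher. The exact sign-flip p was 0.0156, the smallest that 7 pairs allow. The limma call held on leaving out bottom intestine at P20 (adjusted p = 0.0381) and was lost on leaving out any other single pair (adjusted p up to 0.133). In large bowel the change was -1.47 ± 0.49 (adjusted p = 0.501, limma) over 3 pairs, which cannot go below an exact p of 0.25, and 0.0121 percent of 16488 genes were called there.

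The few percc1-/- libraries with Ghrl above 0 were all older. Of the 10 percc1-/- libraries from E14.5, P1 and P5, 10 were listed at 0, against 2 of 6 from P10 to P20. The 4 values above 0 rest on an implied 5.96 to 15.5 fragments each. Stage was not tested, because the regions sampled differ between the younger and the older libraries.

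Mboat4 was lower in percc1-/- stomach at every stage. It had 0.289 FPKM at P1 (bounds 0.129 to 0.450), 0.349 at P5 (0.156 to 0.542), 0.258 at P10 (0.0630 to 0.453), 0.252 at P15 (0.0266 to 0.477) and 0.264 at P20 (0.0644 to 0.463), a mean of 0.282 ± 0.0398 FPKM (SD, n = 5). The groups did not overlap, and the deposited bounds of wild type and percc1-/- were apart in 5 of 5 pairs. For neither is the share among all genes given here. Wild type was 3.51-fold higher at P1, 3.09-fold at P5, 8.92-fold at P10, 5.56-fold at P15 and 5.75-fold at P20. All 5 percc1-/- stomach values lay within the range of wild-type small intestine.

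The test across all genes did not call Mboat4 in stomach. The fitted change was -0.86 ± 0.13 on the log2 scale (SE, adjusted p = 0.411, limma). It stood at rank 11 of 16584 genes by p, where 4.59 percent of the genes, Mboat4 included, had an unadjusted p under 0.05. The exact sign-flip p was 0.0625, again the smallest that 5 pairs allow.

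Outside stomach the Mboat4 values were low and close. In small intestine percc1-/- had 0.0610 to 0.213 FPKM (0.139 ± 0.0601, SD, n = 7) against 0.180 to 0.417 in wild type, and was the lower in 6 of 7 pairs, but the bounds were apart in 0 of 7. The fitted change was -0.18 ± 0.06 (SE, adjusted p = 0.374, limma), with an exact sign-flip p of 0.0313. In large bowel percc1-/- had 0.121 to 0.300 FPKM, higher than wild type in 2 of 3 pairs, with a fitted difference of 0.01 ± 0.09 (adjusted p = 0.973, limma). Whole gut at E14.5 had 0.219 against 0.287 FPKM, with 1 library per genotype and no test. Over all pairs the change was -0.35 ± 0.10 (adjusted p = 0.0955, limma, lower in 13 of 16 pairs), which did not pass, and the exact sign-flip p was 0.000793.

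**Figure D2:**
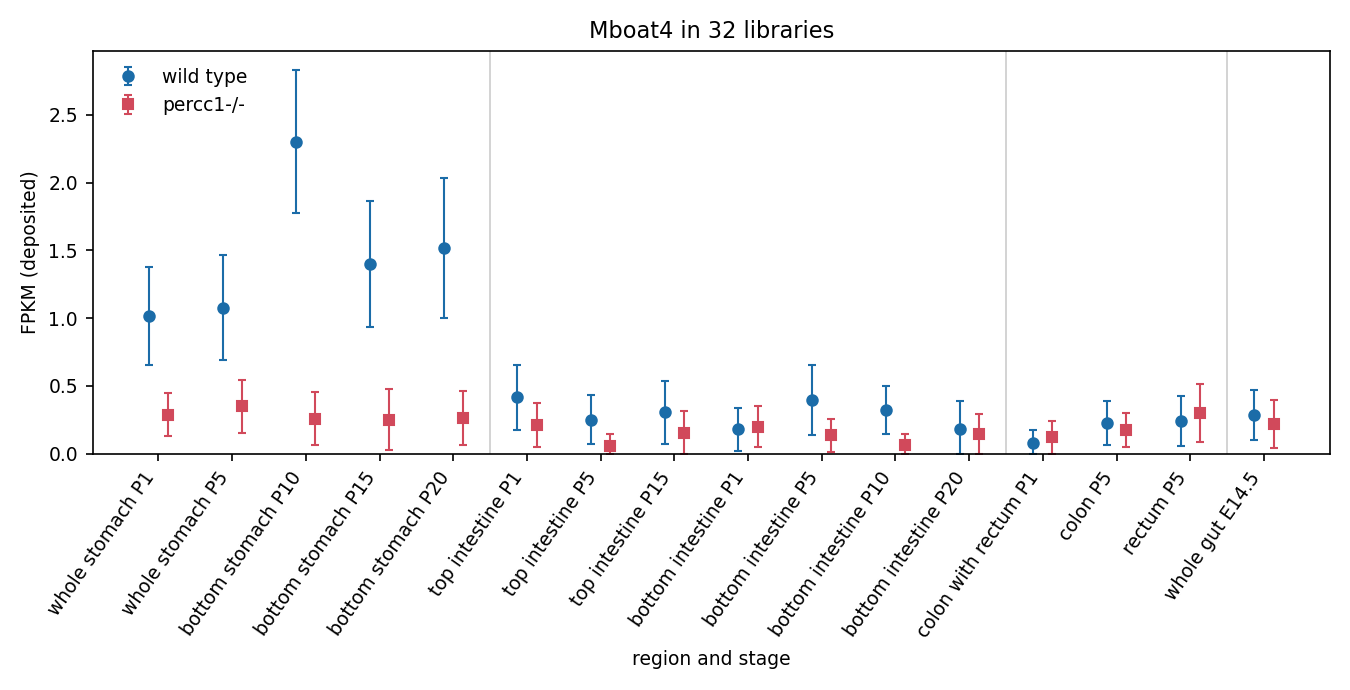
Mboat4 in FPKM as deposited (vertical axis) for each region and stage (horizontal axis), wild type as circles and percc1-/- as squares, with bars for the deposited 95% bounds. The bounds of the genotypes are apart in 5 of 5 stomach pairs and in 0 of 7 small intestine pairs.

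The difference between organs was tested directly. The mean log2 ratio of percc1-/- to wild type (deposited FPKM + 1) was -5.15 in stomach and -3.02 in small intestine for Ghrl, a difference of -2.14 (exact permutation of 5 against 7 pairs, two-sided, p = 0.00758, adjusted over the 2 genes 0.00758). Since Ghrl fell to 0 in most pairs, its log2 ratio there is set by the wild-type level. For Mboat4 the means were -0.92 and -0.18, a difference of -0.74. Its p was 0.00126 by the same exact permutation test, the smallest it can give (adjusted 0.00253). Wild-type small intestine had only 0.180 to 0.417 FPKM of Mboat4. With the pseudocount of 1, a complete loss there could not reach the smallest stomach fall (-0.62). The separation of the organs on this scale therefore does not show a stronger effect in stomach. As a plain ratio with no pseudocount the difference for Mboat4 was -1.16, with an exact permutation p of 0.0379, and the pair ratios of the organs overlapped. In the limma interaction over all genes neither passed (-2.09, adjusted p = 0.540, for Ghrl and -0.68, adjusted p = 0.296, for Mboat4), where 0.0245 percent of 16301 genes were called.

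**Figure D3:**
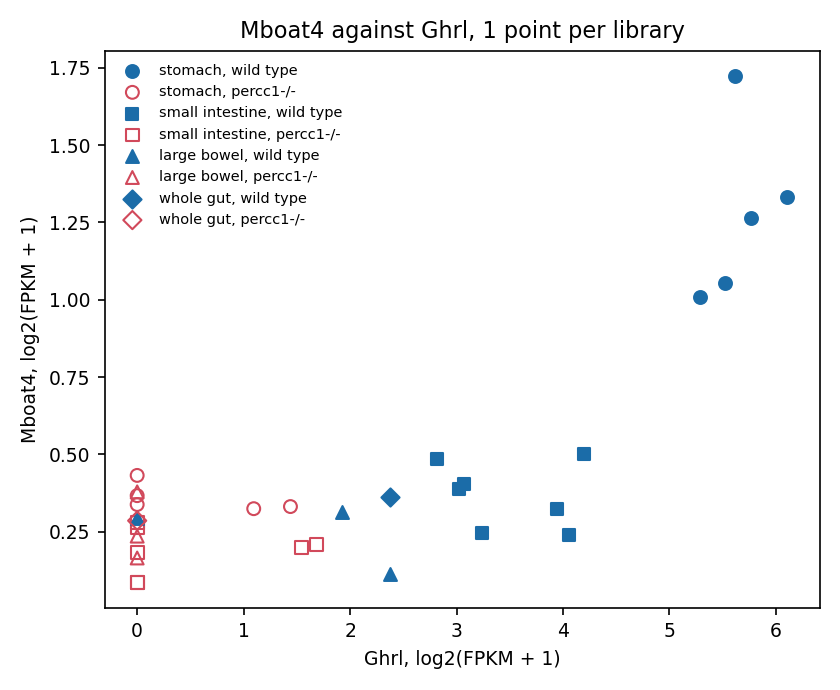
Mboat4 against Ghrl, each as log2(FPKM + 1), with 1 point per library, filled for wild type and open for percc1-/-, and shapes for the organs. The 5 wild-type stomach libraries stand apart at the upper right, and percc1-/- stomach lies with the intestinal libraries.

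Levels of Ghrl and Mboat4 across the 16 wild-type libraries had a Pearson r of 0.77 on the log2 scale, as a description of libraries that share regions and stages. The genes closest to Ghrl over those libraries were Rnf144b (r = 0.92), Cfi (0.89), Hsdl2 (0.88), Avpi1 (0.88) and Me1 (0.88), among 13016 genes averaging 1 FPKM or more. Those closest to Mboat4 were the iodide transporter Slc5a5 (0.96), 6330512M04Rik (0.95), the potassium channel subunit Kcne1 (0.95), Ccdc19 (0.95) and the keratin Krt79 (0.95). Mboat4, whose mean is under that minimum, was not among the genes ranked for Ghrl, where its r would take place 136. Ghrl was at rank 429 of 13017 genes for Mboat4. Over all 32 libraries the genes above the minimum that were closest to Ghrl were Rsph3a (0.79), Decr2 (0.78), the hormone somatostatin Sst (0.75), Tbxas1 (0.72) and Tagap1 (0.70), of which Rsph3a, Decr2 and Tagap1 lie on chromosome 17, the chromosome of the deletion. The r of Ghrl with Mboat4 over these 32 was 0.75, which lies above that of Tbxas1. Mboat4 was closest to Ghrl itself (0.75), followed by Decr2 (0.75), gastrin Gast (0.74), Krt79 (0.74) and Stk32b (0.70). The r values over 32 libraries also take in any genotype difference, since Ghrl was at most 2.21 FPKM in percc1-/-. They do not separate genotype from shared expression.

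Records without a gene symbol lay over Ghrl and were not part of its value. All 16 percc1-/- libraries had them over the gene, as had 15 of 16 from wild type. Unnamed records also lay beyond both ends of the gene in all 16 libraries of each genotype. Averaged per base, they had a median of 1.82 FPKM inside the gene in percc1-/- and 1.52 in wild type. In a window of equal length before the start the medians were 1.47 and 1.03 FPKM, and after the end 3.01 and 2.86. The files do not give their strand. With every overlapping unnamed record added to Ghrl, the change over all pairs was -1.37 (adjusted p = 0.0207, limma), in stomach -2.63 (0.0157) and in small intestine -1.27, which did not pass (0.123). With only records lying at least 0.5 of their length inside Ghrl, a choice made after seeing the data, these were -1.79 (0.0116), -3.48 (0.0147) and -1.37 (0.170). Over Mboat4 there was an unnamed record in 1 library, wild-type bottom stomach at P10.

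**Figure D4:**
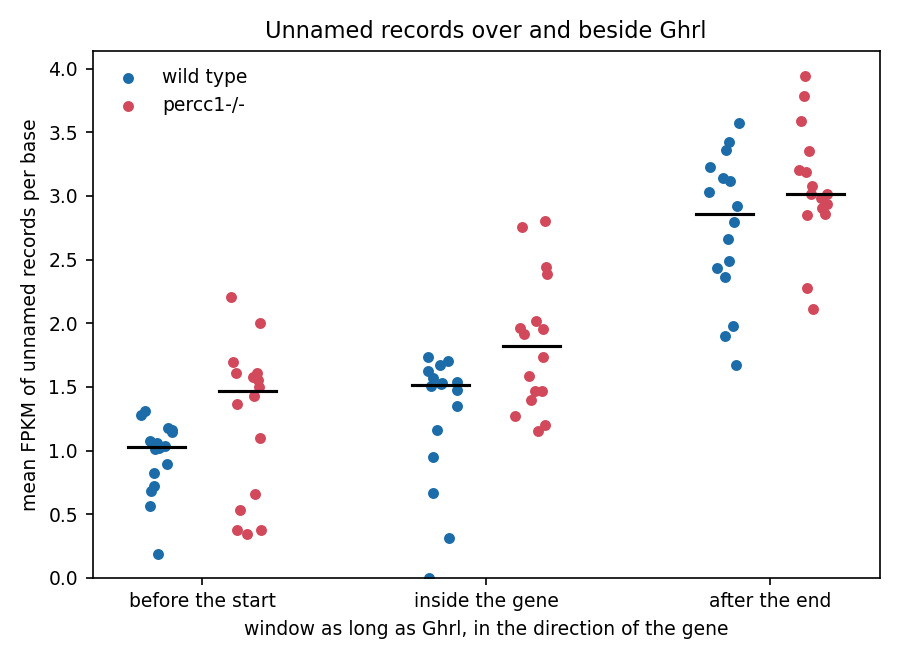
Unnamed records over Ghrl and in windows of equal length before its start and after its end (horizontal axis), as mean FPKM per base (vertical axis), with 1 point per library and a black line at the median of each genotype. The medians inside the gene, 1.52 FPKM in wild type and 1.82 in percc1-/-, lie between those before and after it, while single libraries do not always.

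The genes beside Ghrl and Mboat4 did not pass the test. On either side of Ghrl lie Tatdn2, Irak2, Sec13 and Atp2b2, with Tatdn2 the nearest at 3571 bp, and beside Mboat4 lie Dctn6, Rbpms, Leprotl1 and Tmem66, with Dctn6 the nearest at 6519 bp. All 8 were tested in stomach, with fitted changes from -0.13 (Irak2) to 0.29 (Tatdn2) and 0 called, beside 0.0121 percent of all genes there. Over all pairs 6 were tested, with Tatdn2 and Irak2 missing because their records had merged or failed in some library. Of these 6, 0 passed, beside 0.79 percent of all genes. At an unadjusted p under 0.05, limma listed 1 neighbour in stomach, Tatdn2 (adjusted p = 0.955), and 0 over all pairs, where 13.1 percent of all genes did.

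Among genes of ghrelin's maturation, Bche was called lower over all pairs and no other was. Of 7 listed genes, Mboat4 included, 6 were tested over all pairs and 1 was called, with a median change of -0.17 against 0.00 over all genes tested, of which 0.79 percent were called. The called gene was Bche, butyrylcholinesterase, which removes the fatty acid from ghrelin (-0.27 ± 0.06 SE, adjusted p = 0.0341, limma, lower in 14 of 16 pairs). The prohormone convertase Pcsk1, which cuts proghrelin, had a change of 0.05 ± 0.09 (adjusted p = 0.846). Its relative Pcsk2 had -0.21 ± 0.08 (adjusted p = 0.262, below wild type in 12 of 16 pairs), the carboxypeptidase Cpe -0.13 ± 0.05 (0.284), and Lypla1, a thioesterase that also deacylates ghrelin, -0.01 ± 0.05 (0.975). In stomach 0 of the 6 tested genes were called by limma, where 0.0121 percent of all genes were. There Pcsk1 had a median of 3.71 FPKM in wild type and 4.49 in percc1-/-, Pcsk2 1.84 and 1.05 (lower in 4 of 5 pairs), Cpe 22.9 and 19.0, Lypla1 13.8 and 14.4, and Bche 12.3 and 11.4. Furin, another convertase, was missing from the stomach and all-pairs fits, and in small intestine had a change of 0.21 ± 0.09 (adjusted p = 0.475, limma).

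On the receptor side, 3 of 4 listed genes were tested and 0 were called in any genotype fit, where 0.79 percent of all genes were called over all pairs and 0.0121 percent in stomach. With so few genes a count of 0 lies near those shares. Ghsr, the ghrelin receptor, stayed under the minimum mean of 0.1 FPKM. Leap2, a peptide that blocks Ghsr, changed by -0.60 ± 0.38 over all pairs (adjusted p = 0.527, limma), Mrap2, an accessory protein of melanocortin and ghrelin receptors, by 0.01 ± 0.06 (0.985), and Gpr39, a receptor related to Ghsr, by 0.03 ± 0.09 (0.919). Of 11 receptors and signal proteins described in ghrelin cells, such as Adrb1 and Ffar2, 8 were tested over all pairs and 0 were called, again near the share of 0.79 percent. Of 13 transcription factors of endocrine cells, Neurog3 and Neurod1 among them, 13 were tested and 0 were called.

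**Figure D5:**
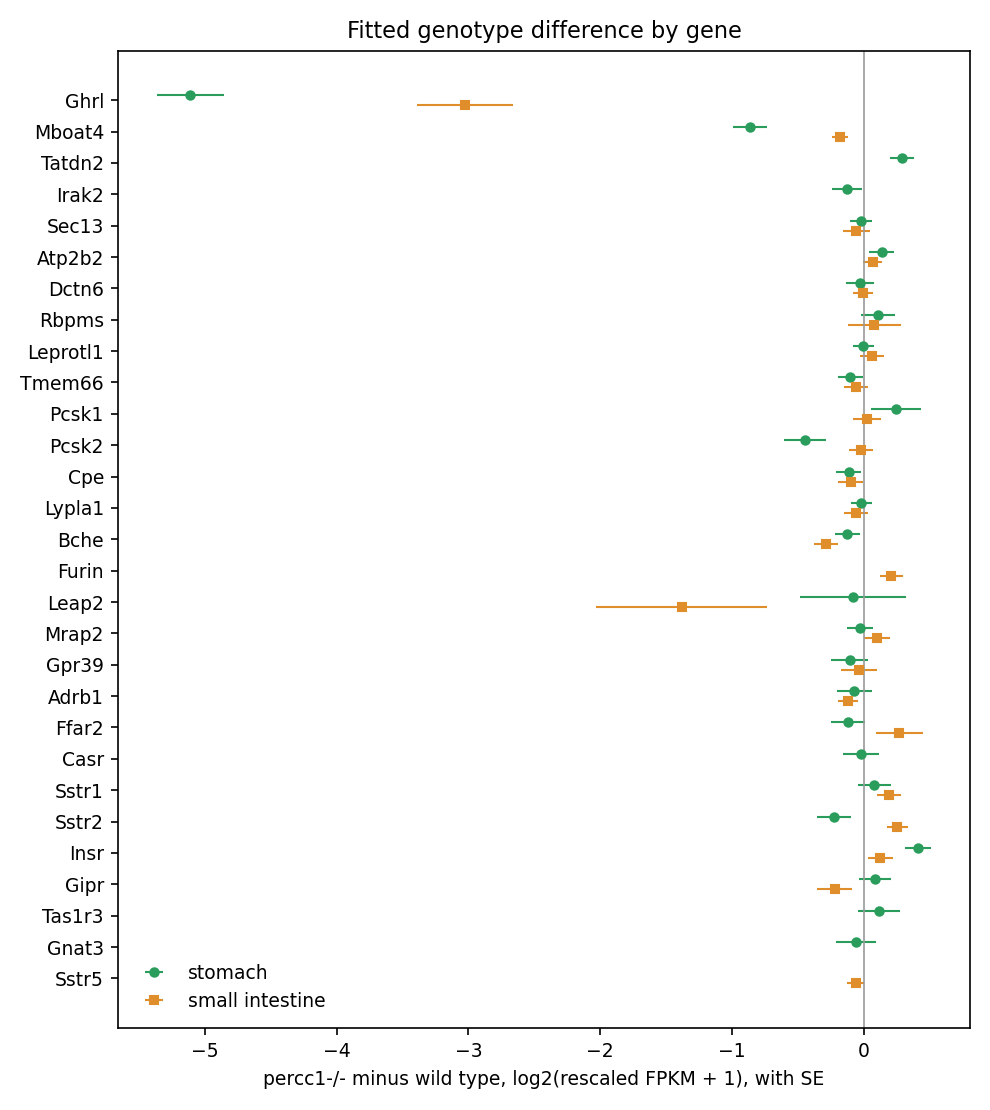
Fitted difference of percc1-/- minus wild type in log2(rescaled FPKM + 1) with its SE (horizontal axis) for Ghrl, Mboat4, their neighbours and genes of ghrelin maturation, reception and input (vertical axis), in stomach (circles) and small intestine (squares). Ghrl is at -5.11 and -3.02 and Mboat4 at -0.86 and -0.18; a missing symbol means that the gene was not tested in that organ.

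Of the secretory proteins that ghrelin cells share with other endocrine cells, 0 were called lower over all pairs. Of 9 listed genes 2 were called over all pairs, both higher, with a median change of 0.03, beside 0.343 percent called higher among all genes tested. They were the granins Chga (0.41 ± 0.09 SE, adjusted p = 0.0315, limma, higher in 13 of 16 pairs) and Chgb (0.49 ± 0.07, adjusted p = 0.00268, higher in 16 of 16). In small intestine Chga was called (0.61, adjusted p = 0.0409, limma), where 0.0123 percent of all genes were called higher. In stomach 0 of the 9 were called, where 0.0121 percent of all genes were. Nucb2, a secreted protein found in ghrelin cells, had a change of 0.21 ± 0.09 over all pairs (adjusted p = 0.304).

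Among 14 other gut hormone genes tested over all pairs, 7 were called lower and 2 higher, with a median of -0.87, beside 0.447 percent lower and 0.343 percent higher among all genes tested. The lower ones were Gcg (-2.61), Pyy (-2.22), Gip (-2.21), Nts (-1.89), Sst (-1.87), Cck (-1.30) and Ppy (-0.90), with adjusted p from 1.24e-05 to 0.0495 by limma, and the higher ones were Tph1 (1.21) and Tac1 (0.40). In stomach Gcg was the 1 of 13 that was called (-2.09, adjusted p = 0.00744), beside 0.0121 percent of all genes tested there. In small intestine 5 of 14 were called, all lower, beside 0.0679 percent called lower among all genes tested there. They were Gip (-4.35, adjusted p = 1.34e-05, limma), Nts (-3.37, 0.00737), Gcg (-2.94, 0.0335), Cck (-2.52, 0.0335) and Sst (-2.22, 0.0342). The fitted fall of Ghrl was larger than that of each of these genes over all pairs and in stomach. In small intestine those of Gip and Nts were larger than that of Ghrl. With the pseudocount of 1 a fall is capped by the wild-type level, so this order partly reflects that level. In wild-type stomach the median was 47.9 FPKM for Ghrl and 6.52 for Gcg.

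Markers of neighbouring organs differed between the genotypes in 8 of 16 pairs by a median of more than 1 on the log2 scale. These 8 are called pairs with foreign markers, a label for the difference and not for the presence of such markers. They included 4 of 5 stomach pairs. Exocrine pancreas genes were lower in percc1-/- by 2.76 at P1 and 1.81 at P5, and higher by 1.66 at P10 and 1.37 at P20. At P1 the small intestine list was higher by 1.46, and at P5 the liver list by 3.94. Over the stomach libraries the 7 exocrine genes summed to 6.19 to 91.2 FPKM in wild type against 1.59 to 267 in percc1-/-. The 4 liver genes summed to 12.7 to 21.6 against 10.5 to 130 FPKM, and the 8 small intestine genes to 31.3 to 93.2 against 43.5 to 80.7 FPKM. The part of these tissues in the changes of Ghrl and Mboat4 was not tested. Stomach's own 9 markers summed to 312 to 889 FPKM in the wild-type libraries and to 120 to 899 in the others, so the ranges overlapped. The lowest sum, like the median difference of -1.05 for the list, was at P1 in percc1-/-. In the 1 stomach pair without such markers, bottom stomach at P15, Ghrl was 53.4 against 1.14 FPKM and Mboat4 1.40 against 0.252.

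Islet cells can also make ghrelin, so their markers are given beside the low values. Percc1-/- bottom stomach at P10, with 1.71 FPKM of Ghrl, had the highest islet values of the 10 stomach libraries for Ins2 (23.5 FPKM), Ins1 (8.99) and Iapp (6.53). The fourth islet gene, Ppy, was at 0.706 FPKM there against 2.98 in the wild-type library of the pair, the highest of the 10. The 4 islet genes summed to 1.10 to 7.19 FPKM in wild-type stomach and 0.543 to 39.7 in percc1-/- stomach. In percc1-/- bottom stomach at P15, with 1.14 FPKM of Ghrl, Ins1 and Ins2 were listed at 0. The part of islet RNA in these values was not tested. In small intestine the 3 pairs with foreign markers were the top part at P1 (stomach list 1.97, exocrine pancreas -3.50) and P5 (-2.05 and -3.84), and the bottom part at P5 (stomach list 2.10). The islet list was also lower in percc1-/- in the top part, by 1.53 at P1 (summed 11.7 FPKM in wild type and 0.326 in percc1-/-) and by 1.45 at P5 (16.6 and 2.14 FPKM). Ghrl in those pairs was 17.4 and 14.4 FPKM in wild type and listed at 0 in percc1-/-. Over all small intestine libraries the islet list summed to 0.942 to 16.6 FPKM in wild type against 0 to 2.14 in percc1-/-, and its part in the change of Ghrl was not tested. Iapp and Ppy of this list are also among the other gut hormones, and Ppy was called lower over all pairs. In wild-type bottom intestine Ins1 was listed at 0 and Ins2 reached at most 0.242 FPKM. The sums there came mostly from Iapp and Ppy, and are no measure of islet tissue alone. Over small intestine the stomach list summed to 5.01 to 92.6 FPKM in wild type against 4.17 to 223 in percc1-/-, and the exocrine list to 0.211 to 159 against 4.23 to 23.3 FPKM. Without all 8 pairs Ghrl changed by -2.74 over the other 8 (adjusted p = 0.0372, limma) and by -2.56 in small intestine, which did not pass (adjusted p = 0.695).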

How the data were processed

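The authors deposited 1 gene table per library, with FPKM and its bounds and no counts. TopHat2 2.0.13, SAMtools 0.1.18, Cufflinks 2.2.1 and mm9 come from the submitters' processing notes. For the annotation, no version is given in the sources used. Per the labels' protocols, libraries were stranded with ribosomal RNA removed.

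The members and lists were chosen with earlier results of these data known. Records of one symbol were summed. Genes in merged or failed records were missing, which took them out of that fit. FPKM were rescaled with the median over 10023 genes, those exceeding 1 FPKM in all libraries, of the ratio to a geometric-mean library (factors 0.864 to 1.38). Tests used limma 3.58.1 in R 4.3.3 on log2(rescaled FPKM + 1), trended and robust, for genes averaging 0.1 FPKM or more, with the pair as a block and Benjamini-Hochberg adjustment (called under 0.05). Pairs come from the region and stage labels. The pseudocount makes a fold change of low genes look smaller than it is. Fragment numbers implied by the bounds assume Poisson error, as an approximation. For 23 of 32 Mboat4 values they were whole within 0.02. Sequences come from the mm9 genome with GENCODE vM1. Genes named are both members, called list members, the maturation and receptor genes, up to 2 neighbours on each side and the 5 most alike genes. The models were tested on simulated data. Alternatives were another pseudocount, other filters, deposited FPKM, no block, added unnamed records, bounds, stages averaged and pairs left out.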

Additional observations from a re-analysis of the deposited data

Results flagged for a closer look

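The genotype change of Ghrl differed between stomach and small intestine by -2.14 on the log2 scale, and that of Mboat4 by -0.74. The exact permutation test of pairs between the organs gave p = 0.00758 and 0.00126 (two-sided, 5 against 7 pairs). Where Ghrl was listed at 0 in percc1-/-, its ratio is set by the wild-type level, so that its difference does not show a stronger effect in stomach. The Mboat4 difference does not show it either, since the pseudocount of 1 caps any small intestine fall below the smallest stomach fall. As a plain ratio with no pseudocount, the Mboat4 difference was -1.16 (exact permutation p = 0.0379) and the pair ratios of the organs overlapped. Neither passed in the limma interaction adjusted over all genes (adjusted p = 0.540 and 0.296). In 12 groups of 4 to 10 libraries tested for a library far from the others, 0 were found.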

How the results depend on the processing

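Ghrl over all pairs kept its direction and its call in every setting run, leave-one-out included (-3.58 to -3.18). In stomach its call was lost with a pseudocount of 0.1 (-7.39, adjusted p = 0.0643, limma) and without bottom stomach at P15, the pair whose percc1-/- table is the smallest (-5.19, 0.0578; leave-one-out range -5.37 to -4.91). In small intestine it was lost with a pseudocount of 0.1 (-5.41), without the filter on low values (-3.02, 0.0606), with unnamed records added (-1.27, or -1.37 for those at least 0.5 inside), with wild type at its lower and percc1-/- at its upper bound (-2.56) and without pairs with foreign markers (-2.56), and leaving out 1 pair gave -3.30 to -2.82. That last alternative could not be fitted in stomach, where 1 pair was left. Mboat4 over all pairs passed with a pseudocount of 0.1 (-0.92, 0.0489). With the bounds set against it, its change turned to 0.072 over all pairs and 0.23 in small intestine, and remained negative in stomach. In large bowel leave-one-out gave -0.014 to 0.055. With a minimum mean of 1 FPKM Mboat4 was not tested wherever its mean was lower. The cause was not tested for any of these.

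The number of genes called over all pairs, 129, was 21 without the pairing block, 9 without pairs with foreign markers, 2 with stages averaged and 81 to 183 on leaving out 1 pair. In stomach, 2 became 1 with a pseudocount of 0.1, 5 with FPKM as deposited, 1 without the pairing block, 0 without bottom stomach at P15, and 0 to 3 on leaving out 1 pair. In small intestine, 13 became 7 with a pseudocount of 0.1, 3 without the filter, 21 without the pairing block, 1 without pairs with foreign markers, and 1 to 17 on leaving out 1 pair. The labels give no replicate numbers, and without the block no call of Ghrl or Mboat4 changed (Ghrl -3.35 over all pairs, adjusted p = 1.61e-05). Outside stomach few fragments stand behind each Mboat4 value.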
